A study of Mus musculus with 8 samples.

Results

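The ligands of the epidermal growth factor (EGF) type and their ErbB receptors were examined in the kidney of NZBWF1 mice at 8 and 28 weeks of age. They were chosen by gene symbol: the ligands Egf, Hbegf, Areg, Ereg, Tgfa and Btc and the receptors Egfr, Erbb2, Erbb3 and Erbb4. Of these 10 genes 9 had a probe under their symbol, 1 probe each, among 19505 genes on a named probe. Areg, the gene of amphiregulin, was not analysed here. NZBWF1 mice, a cross of 2 New Zealand strains, are a model of lupus and develop nephritis as they age. Total RNA of whole kidney from 4 mice at 8 weeks (replicates 1 to 4) and 4 mice at 28 weeks (replicates 6 to 9) was measured, each mouse on its own 1-colour array of the Clariom S Mouse type. The labels give no treatment, and no second strain was analysed here, so disease and age itself cannot be told apart.

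EGF-type ligands are made as membrane-anchored precursors, cut free by metalloproteases of the ADAM family, and bind ErbB receptors, which pair up and signal through RAS and ERK and through PI3 kinase and AKT. EGF, TGF-alpha and amphiregulin bind EGFR, while HB-EGF, betacellulin and epiregulin bind both EGFR and ERBB4. ERBB2 has no known ligand of its own and ERBB3 has a weak kinase, so both work as partners of other ErbB receptors, and ERBB3 and ERBB4 are the receptors of the neuregulins. The kidney is a major source of EGF, which is made by the thick ascending limb and the distal convoluted tubule, passes into the urine and promotes magnesium uptake through the channel TRPM6.

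The authors' values come from robust multi-array averaging (RMA) and are on a log2 scale, on which a step of 1 is a 2-fold difference. Each adjusted p comes from a limma fit to all 22206 probes with the Benjamini-Hochberg method, and 0.05 was the threshold. Precision is limited by the number of arrays. Array medians lay between 5.98 and 6.14. Markers of kidney were bright: the proximal tubule gene Lrp2 had values of 17.74 to 18.25 and the thick ascending limb gene Umod 18.31 to 18.72. At the dim end, Kdm5d (log2 difference -0.30, adjusted p = 0.605), Uty (0.15, adjusted p = 0.824) and Eif2s3y, all Y-linked, lay between 2.57 and 3.76 in all 8 mice. On the first principal component, with 39.4% of the variance, 28-week replicate 7 (-12.9) lay among the 8-week mice (-39.5 to -7.66) and away from the other 28-week mice (31.8 to 59.9). On the second component, with 25.1%, 8-week replicate 1 (65.1) lay away from the other 7 arrays (-27.8 to 15.3). For the members and the gene lists described, the value without 28-week replicate 7 is given where leaving it out changes a call, and none of their genes gained a call without 8-week replicate 1 alone.

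The sequences before the transcription starts of Egf and Egfr are shown because they are the kidney's main EGF-type ligand and its receptor. They come from RefSeq (GRCm38.p6), which gave a promoter for 6 of the 9 measured genes. Each is the 250 bases before the annotated start. The Egf sequence is chr3:129755323-129755572 on the minus strand and the Egfr sequence chr11:16751953-16752202 on the plus strand.
Egf: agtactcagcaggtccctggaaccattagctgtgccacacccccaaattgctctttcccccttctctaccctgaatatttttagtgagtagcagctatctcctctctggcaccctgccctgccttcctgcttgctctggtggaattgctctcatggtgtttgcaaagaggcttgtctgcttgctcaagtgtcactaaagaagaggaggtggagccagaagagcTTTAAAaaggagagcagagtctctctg
Egfr: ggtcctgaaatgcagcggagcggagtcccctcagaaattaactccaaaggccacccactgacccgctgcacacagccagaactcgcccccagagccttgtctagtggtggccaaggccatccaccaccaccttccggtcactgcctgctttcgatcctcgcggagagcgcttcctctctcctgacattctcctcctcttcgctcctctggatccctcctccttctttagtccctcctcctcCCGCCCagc
The search covered both strands for the TATA box TATAAA, its variant TTTAAA, the GC box GGGCGG, the HNF1 half-site GTTAAT, the AP-1 site TGANTCA and the CREB site TGACGTCA. Capitals mark TTTAAA in Egf and CCGCCC, the reverse complement of the GC box, in Egfr. TTTAAA was added to the search after the Egf sequence had been read. It lies 27 to 22 bases before the Egf start, and it is found in 12.1% of 32851 promoters of this length. The TATA box TATAAA, found in 12.4% of them, was in neither sequence on either strand. The GC box lies 9 to 4 bases before the Egfr start and is found in 32.7% of promoters. Egfr also holds GTTAAT, on the opposite strand, 214 to 209 bases before its start (6.43% of promoters), and neither sequence holds TGANTCA (6.75%) or TGACGTCA (1.55%). The Egf sequence has no CpG, as have 7.87% of promoters, and a GC content of 50.4%, while the Egfr sequence has 11 CpGs and a GC content of 60.8% (median of all promoters 6 CpGs and 52.4%). RefSeq lists a second Egf start, whose promoter has 15 CpGs and neither TTTAAA nor GGGCGG. Such matches describe the letters and are not measured sites.

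No member passed the threshold over all probes, where 215 of 22206 probes (0.968%) did. The closest were Erbb3, with a mean 1.93-fold lower at 28 weeks (adjusted p = 0.0578), and Egf, with a mean 1.80-fold lower (adjusted p = 0.095). In these 2 of 9 genes all 4 mice at 28 weeks lay below all 4 at 8 weeks, a pattern seen in 4.33% of probes. Of the 9 genes 4 (Erbb3, Egf, Egfr and Erbb4) had an unadjusted p under 0.05 in limma, against 15.0% of all probes. The other settings of the fit to all 8 arrays called between 0 and 2 members. Without 28-week replicate 7, Egf and Erbb3 passed (adjusted p = 0.01 and 0.0343), but so did 5.57% of all probes. The median log2 difference of the 9 genes was -0.23, and that of all probes -0.01.

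**Figure D1:**
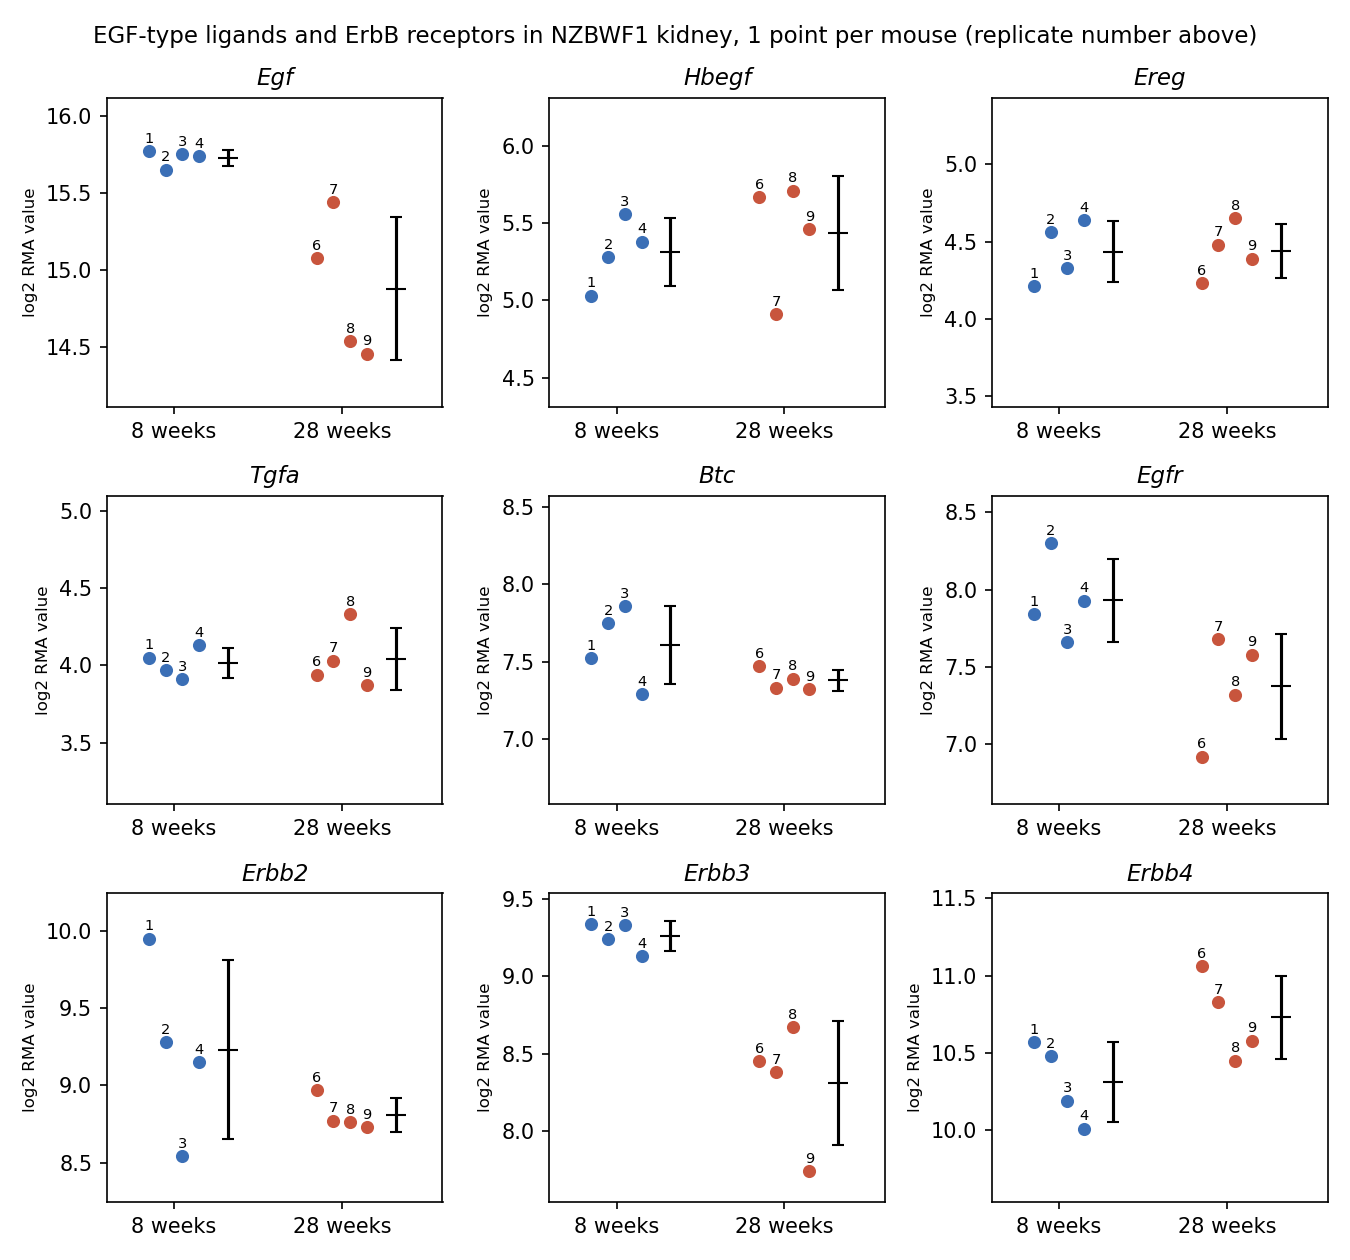
Log2 RMA values of the 5 measured ligands and 4 receptors (vertical axes, each spanning 2 log2 units) at 8 weeks (blue) and 28 weeks (red), 1 point per mouse with its replicate number, and mean and SD of each age as a bar in black. The 8-week mice lie close together for Egf (15.65 to 15.77) and Erbb3 (9.13 to 9.34), and all 28-week mice lie below them.

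Egf, the main EGF-type ligand of the kidney, was 15.77, 15.65, 15.75 and 15.74 in 8-week replicates 1 to 4 and 15.08, 15.44, 14.54 and 14.46 in 28-week replicates 6 to 9. The 8-week mice were almost alike and the 28-week mice spread widely below them, with replicate 7 nearest to the 8-week level. The means were 15.73 ± 0.05 (SD, n = 4) and 14.88 ± 0.46 (SD, n = 4), and the log2 difference was -0.85 (SE 0.21, 95% interval -1.32 to -0.37). The exact two-sided permutation test gave p = 0.0286, which is the smallest p that 4 against 4 mice allow and follows from the lack of overlap. Without 28-week replicate 7 the log2 difference was -1.03 (adjusted p = 0.01), and without each of the other 7 arrays it lay between -0.91 and -0.71 (adjusted p of 0.142 to 0.256). It also passed with variance trend and robust options (adjusted p = 0.0486) and with array weights (adjusted p = 0.0376).

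Btc encodes betacellulin, a ligand of EGFR and ERBB4. Its values were 7.52, 7.75, 7.86 and 7.29 in 8-week replicates 1 to 4 and 7.47, 7.33, 7.39 and 7.32 in 28-week replicates 6 to 9. The 28-week mice lay within the range of the 8-week mice and close to its lower end. The log2 difference was -0.23 (95% interval -0.57 to 0.12, adjusted p = 0.566).

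Hbegf encodes heparin-binding EGF-like growth factor, a ligand known to be induced in injured epithelium. It was 5.03, 5.28, 5.56 and 5.38 in 8-week replicates 1 to 4 and 5.67, 4.91, 5.71 and 5.46 in 28-week replicates 6 to 9. The ages overlapped, with the lowest value of all 8 mice in 28-week replicate 7. The log2 difference was 0.12 (95% interval -0.33 to 0.57, adjusted p = 0.853), and it was 0.30 without replicate 7 (adjusted p = 0.441).

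The probes of the other 2 measured ligands were dim. Tgfa, the gene of TGF-alpha, lay between 3.91 and 4.13 at 8 weeks and between 3.87 and 4.33 at 28 weeks. Ereg, the gene of epiregulin, lay between 4.21 and 4.64 at 8 weeks and between 4.23 and 4.65 at 28 weeks. Both spans lie at or near the arrays' lower quartiles of 4.16 to 4.44, and RMA gives no detection call, so these levels are not proof of expression. The 95% intervals of the log2 difference were -0.30 to 0.35 for Tgfa and -0.34 to 0.35 for Ereg. The sign of both small differences depended on the scaling.

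Among the receptors, Erbb3 had the smallest p of all members. Erbb3 was 9.34, 9.24, 9.33 and 9.13 in 8-week replicates 1 to 4 and 8.45, 8.38, 8.67 and 7.74 in 28-week replicates 6 to 9. All 28-week mice lay clearly below the 8-week mice, replicate 7 included, and replicate 9 was the lowest. The means were 9.26 ± 0.10 (SD, n = 4) and 8.31 ± 0.40 (SD, n = 4), and the log2 difference was -0.95 (SE 0.20, 95% interval -1.39 to -0.51). The exact two-sided permutation test gave p = 0.0286, again the smallest possible. Its call depended on the setting: Erbb3 passed with arrays centred on their medians (adjusted p = 0.0485), with arrays centred on ribosomal protein genes (adjusted p = 0.0469), without the dimmest probes (adjusted p = 0.0478), with trend and robust options (adjusted p = 0.0378), with array weights (adjusted p = 0.0401) and without 28-week replicate 7 (adjusted p = 0.0343). Without each of the other 7 arrays the log2 difference lay between -1.07 and -0.76 (adjusted p of 0.0926 to 0.15).

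Egfr encodes the receptor that EGF binds. It was 7.84, 8.30, 7.66 and 7.93 in 8-week replicates 1 to 4 and 6.92, 7.68, 7.32 and 7.58 in 28-week replicates 6 to 9. The ages overlapped only through 28-week replicate 7, which lay just above 8-week replicate 3, and replicate 6 was the lowest. The mean was 1.47-fold lower at 28 weeks, with a log2 difference of -0.56 (SE 0.20, 95% interval -1.01 to -0.10, adjusted p = 0.22). For Egfr the exact two-sided permutation test gave p = 0.0571. Without replicate 7 the difference was -0.66 (adjusted p = 0.13).

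Erbb2 encodes the receptor without a ligand of its own. Erbb2 was 9.95, 9.28, 8.54 and 9.15 in 8-week replicates 1 to 4 and 8.97, 8.77, 8.76 and 8.73 in 28-week replicates 6 to 9. Here the wide spread was at 8 weeks, where replicates 1 and 3 were the highest and the lowest of all mice, and the 28-week mice lay between them. The log2 difference was -0.42 (95% interval -0.99 to 0.14, adjusted p = 0.502). It was -0.18 without 8-week replicate 1 and -0.65 without 8-week replicate 3, so single mice set its size.

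Erbb4, a neuregulin receptor, was the one receptor with a higher mean at 28 weeks. Erbb4 was 10.57, 10.48, 10.19 and 10.01 in 8-week replicates 1 to 4 and 11.06, 10.83, 10.45 and 10.58 in 28-week replicates 6 to 9. Of the 28-week mice 3 lay above all 8-week mice and replicate 8 lay among them. The log2 difference was 0.42 (SE 0.19, 95% interval 0.01 to 0.83, adjusted p = 0.328). For Erbb4 the exact two-sided permutation test gave p = 0.114. A difference between the receptors was not tested.

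**Figure D2:**
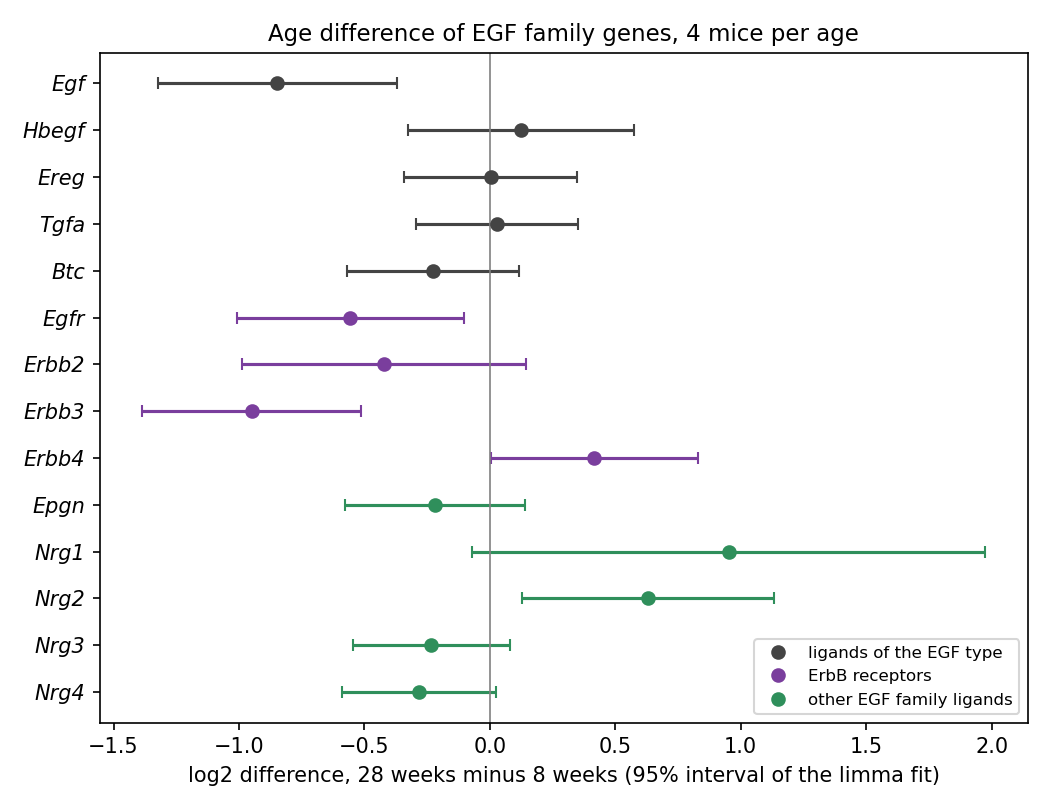
Log2 difference, 28 weeks minus 8 weeks, with the 95% interval of the limma fit (horizontal axis), for the measured EGF-type ligands, the ErbB receptors and 5 other EGF family ligands, 4 mice per age. Egf (-0.85) and Erbb3 (-0.95) lie farthest below 0, Nrg1 (0.95) lies farthest above it with the widest interval, and no gene passed the adjusted threshold.

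**Figure D3:**
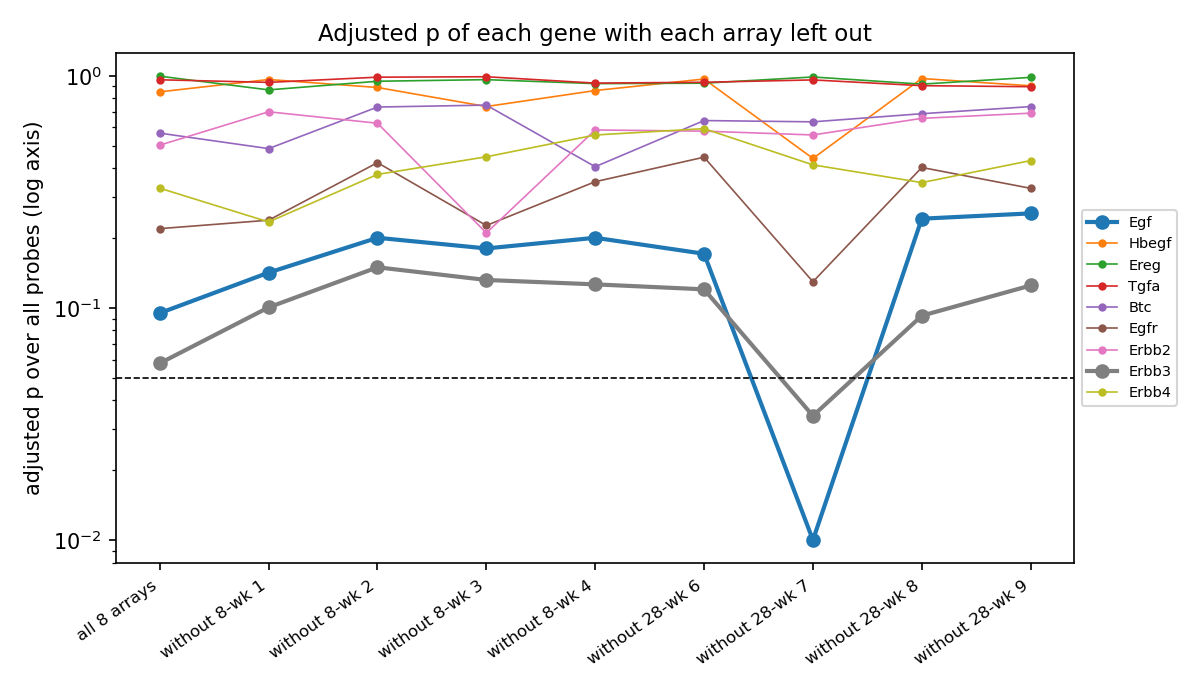
Adjusted p over all probes (log axis) of the 9 genes with all 8 arrays and with each array left out, the threshold of 0.05 dashed. Lines join the values of 1 gene and show no order. Egf and Erbb3 cross the threshold in 1 of the 8 fits with an array left out, the one without 28-week replicate 7.

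The other ligands of the family are the neuregulins, which bind ERBB4 and only in part also ERBB3, and epigen, which binds EGFR. None of the 5 passed the threshold, and the median log2 difference was -0.22. Nrg1, the gene of neuregulin 1, was 8.24, 7.57, 7.65 and 7.91 in 8-week replicates 1 to 4 and 7.46, 8.29, 9.73 and 9.70 in 28-week replicates 6 to 9. Replicates 8 and 9 were high and replicate 6 was the lowest of all mice, so the ages overlapped, and the log2 difference was 0.95 (95% interval -0.07 to 1.98, adjusted p = 0.374). Nrg2 had a log2 difference of 0.63 (adjusted p = 0.211). Nrg4 had one of -0.28 (adjusted p = 0.381), with all 28-week mice below the 8-week mice, as in 4.33% of probes. Epgn had one of -0.22 (adjusted p = 0.6). Nrg3 had one of -0.23 (adjusted p = 0.504), and its probe, at 2.57 to 3.08, was as dim as those of the Y-linked genes. The probes of Nrg2 (3.80 to 5.34), Nrg4 (4.12 to 4.70) and Epgn (4.46 to 5.16) were also dim, so these levels are not proof of expression.

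Among genes that release the ligands, 11 ADAM proteases, rhomboid-like regulators and partners were measured. None passed the threshold, 6 differences were positive and 5 negative, and they ran from -0.64 to 0.52 with a median of 0.08. Adam17, the gene of a protease that frees several EGFR ligands, had a log2 difference of 0.28 (95% interval -0.17 to 0.74, adjusted p = 0.591). The smallest p belonged to Rhbdf2, which encodes iRhom2, a protein that carries ADAM17 to the surface (log2 difference 0.52, adjusted p = 0.227), and to the protease gene Adam12 (log2 difference 0.40, adjusted p = 0.371). Adam12 passed without 28-week replicate 7 (adjusted p = 0.0433).

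Feedback inhibitors of the pathway were also without a call. Of 20 measured genes 12 had a positive and 8 a negative difference, with a median of 0.06, and in 2 of them, Cblb and the dim Socs3 (3.41 to 4.32, chosen after its values were seen), the 28-week mice lay above all 8-week mice, as in 4.38% of probes. Errfi1, which encodes the EGFR-binding inhibitor MIG6, had a bright probe, at 16.89 ± 0.45 at 8 weeks and 16.58 ± 0.12 at 28 weeks (adjusted p = 0.58). Cblb, a ubiquitin ligase gene, had a log2 difference of 0.59 (adjusted p = 0.161). Lrig3, a membrane protein gene, had one of -0.63 (adjusted p = 0.157), and passed without 28-week replicate 7 (adjusted p = 0.0301).

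None of 19 measured genes that relay the signal passed either, with 9 positive and 10 negative differences and a median of -0.005. Gab1, which encodes a docking protein that couples EGFR to PI3 kinase, had means of 9.88 ± 0.15 (SD, n = 4) at 8 weeks and 9.24 ± 0.26 (SD, n = 4) at 28 weeks. All 28-week mice lay below the 8-week mice, and the log2 difference was -0.64 (95% interval -1.01 to -0.28, adjusted p = 0.0966, and 0.0387 without 28-week replicate 7). Nras, a RAS gene, had a log2 difference of 0.41 (adjusted p = 0.247), with all 28-week mice above the 8-week mice.

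No gene on the list of those known to respond to ERK passed over all 8 arrays. Of 18 measured genes 12 had a positive and 6 a negative difference, with a median of 0.20. Plaur, the urokinase receptor gene, had a log2 difference of 0.92 (adjusted p = 0.0966, and 0.00939 without 28-week replicate 7), with all 28-week mice above the 8-week mice. Ier2, an immediate early gene, had one of -0.52 (adjusted p = 0.127), with all 28-week mice below. Egr1, an immediate early transcription factor gene, spread widely at both ages, at 8.49 ± 1.39 at 8 weeks and 7.47 ± 0.93 at 28 weeks (adjusted p = 0.536). Without 28-week replicate 7, 6 of the 18 passed, all higher, against 5.57% of all probes (805 higher and 432 lower). These genes also respond to other signals, and the part of ErbB signalling in them was not tested.

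**Figure D4:**
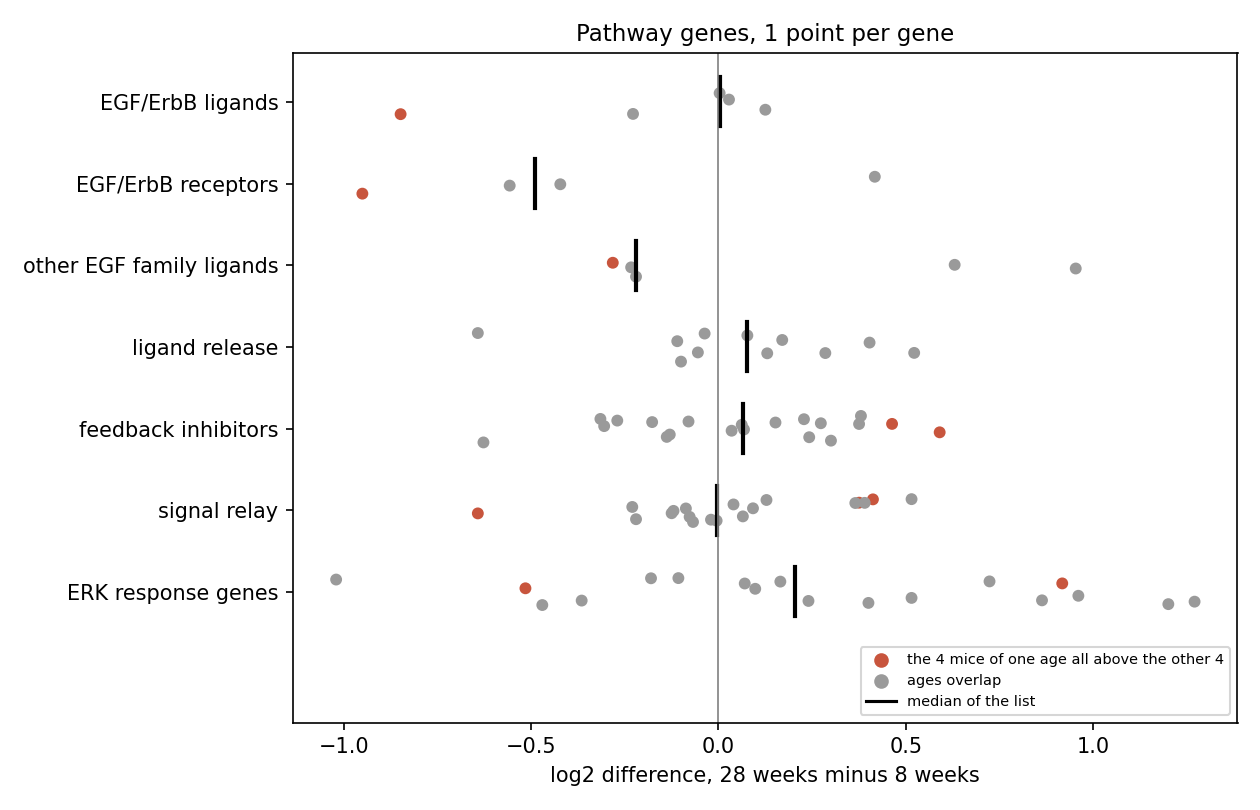
Log2 difference, 28 weeks minus 8 weeks (horizontal axis), of each measured gene in the lists of ligands, receptors, other EGF family ligands, ligand release, feedback, signal relay and ERK response (rows), with the list median as a black bar. Red points are genes in which the 4 mice of one age all lie above the other 4, as in 8.71% of all probes. The medians lie near 0 except for the receptors (-0.49), the other EGF family ligands (-0.22) and the ERK response genes (0.20).

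Egf is made in the distal nephron, and markers of its segments were followed beside it. In whole-kidney RNA, fewer cells of a type and less RNA per cell cannot be told apart. Of 10 distal convoluted tubule markers 8 had a negative difference, with a median of -0.96, and 1 passed (0.968% of all probes did), Pvalb, the gene of the calcium-binding protein parvalbumin. Without 28-week replicate 7, 6 of the 10 passed, all lower, against 5.57% of all probes. Pvalb was 11.87 ± 0.43 (SD, n = 4) at 8 weeks and 9.44 ± 1.09 (SD, n = 4) at 28 weeks (5.37-fold lower, adjusted p = 0.0462), a call that ended without any one of the arrays other than 28-week replicate 7. The mean level of these 10 markers was 13.71 to 14.01 in the 8-week mice and 12.12, 13.65, 12.59 and 12.50 in 28-week replicates 6 to 9. Replicate 7, whose Egf value was the highest at 28 weeks (15.44), also had the highest 28-week level of these markers. The other mice did not follow this order: replicate 6 had the next highest Egf value (15.08) but the lowest marker level (12.12). Slc12a3, the thiazide-sensitive salt cotransporter that defines the segment, had a log2 difference of -0.68 (adjusted p = 0.211, and 0.0387 without replicate 7), and in replicate 7 (16.78) it lay within the 8-week range (16.59 to 17.20). Of 10 thick ascending limb markers 9 had a positive difference, with a median of 0.44 and no call (2 of 10, both higher, without replicate 7). Their mean level was 12.87 to 13.25 at 8 weeks and 13.42 to 13.85 at 28 weeks. Umod, the gene of uromodulin and the segment's defining product, had a log2 difference of 0.22 (adjusted p = 0.494). Slc12a1, the furosemide-sensitive cotransporter, had one of 0.99 (adjusted p = 0.0916), and Cldn19, a tight junction gene, one of 1.47 (adjusted p = 0.0603, and 0.0104 without replicate 7). The part of the distal tubule markers in the Egf result was not tested.

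Magnesium transport genes, which include targets of EGF, all had negative differences: 11 of 11, with a median of -0.34. Among all probes 11402 of 22206 had a negative difference. This list shares genes, Trpm6 among them, with that of the distal convoluted tubule, so the 2 lists are not separate results. They ran from -1.84 to -0.01, so some were close to none, and no gene passed the threshold. Without 28-week replicate 7, 2 of 11 passed, both lower, against 5.57% of all probes. Trpm6, the magnesium channel of the distal convoluted tubule, was 8.73, 8.50, 8.17 and 8.33 in 8-week replicates 1 to 4 and 6.23, 7.91, 6.50 and 5.74 in 28-week replicates 6 to 9. As for Egf, all 28-week mice lay below the 8-week mice, as in 4.33% of probes, and replicate 7 was the nearest to them. The mean was 3.57-fold lower (adjusted p = 0.0607, and 0.000461 without replicate 7). Kcna1, a potassium channel gene that supports magnesium uptake, had a log2 difference of -0.69 (adjusted p = 0.0809). Its probe was dim, at 3.43 to 4.57, so its level is not proof of expression.

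**Figure D5:**
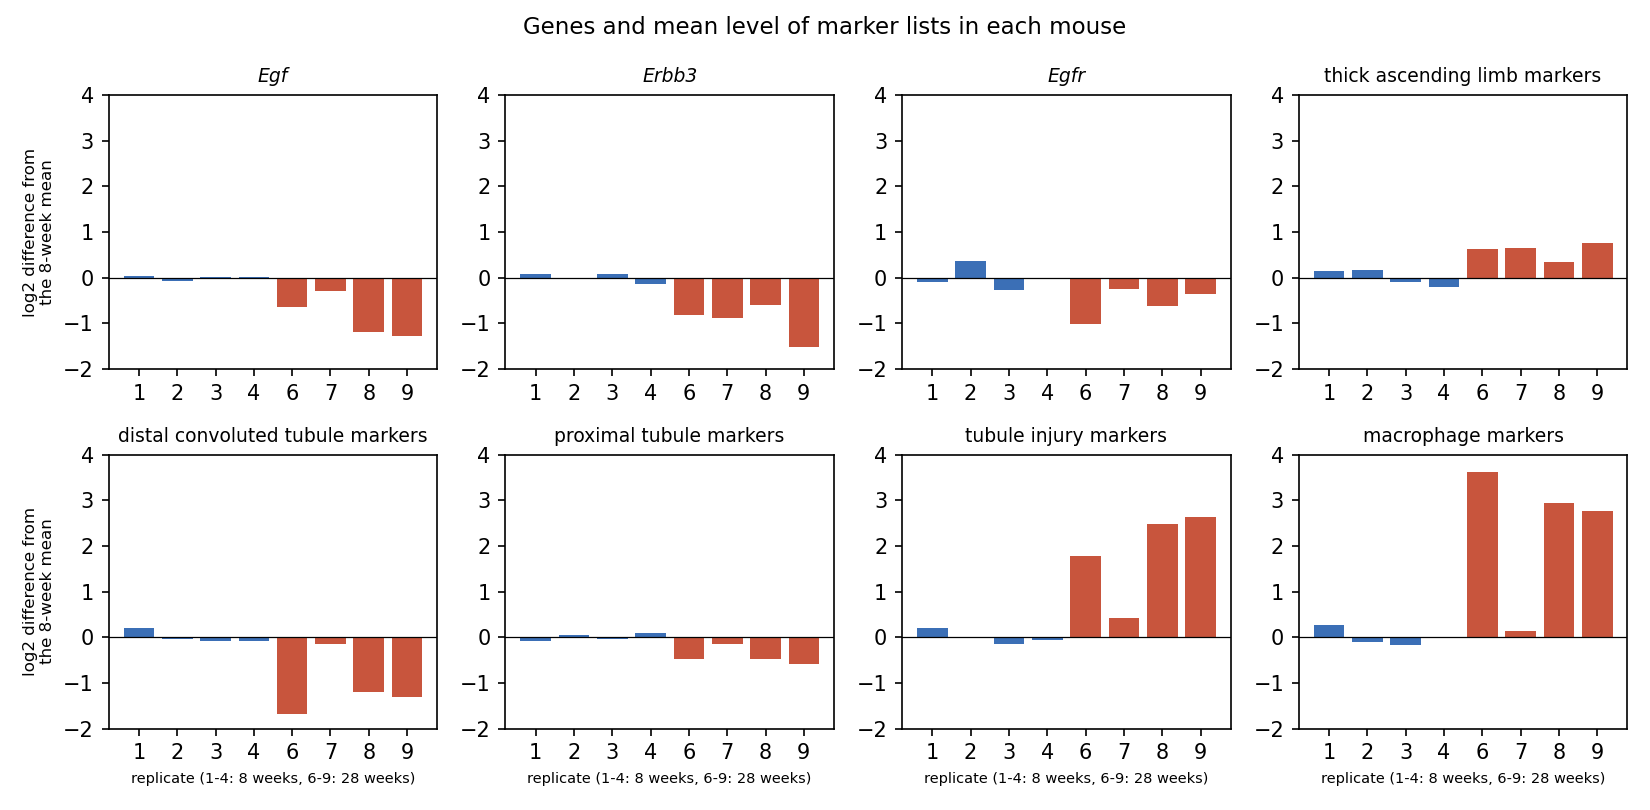
Log2 difference of each mouse from the mean of the 8-week mice (vertical axis) for Egf, Erbb3 and Egfr and for the mean level of 5 marker lists, with 8-week replicates 1 to 4 in blue and 28-week replicates 6 to 9 in red. Replicate 7 lies near 0 for the distal convoluted tubule, proximal tubule and macrophage markers and for Egf is the nearest of the 28-week mice to 0, but Erbb3 is as low in it (8.38) as in replicate 6 (8.45).

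Other cell types were followed because several of them make these ligands or carry the receptors. All 12 proximal tubule markers, cells that carry EGFR, had a negative difference (median -0.37). The 1 that passed (2 of 12, both lower, without 28-week replicate 7) was Slc22a6, an organic anion transporter gene (1.88-fold lower, adjusted p = 0.0313, and up to 0.123 with 1 array left out). Their mean level was 15.04 to 15.21 at 8 weeks and 14.53 to 14.96 at 28 weeks. Of 9 collecting duct markers 5 had a negative difference and none passed (median -0.11). The smallest p were those of the water channel gene Aqp3 (log2 difference -1.03, adjusted p = 0.112) and the sodium channel gene Scnn1g (-0.60, adjusted p = 0.225). Of 15 tubule injury markers 14 had a positive difference and 4 passed, all higher, against 0.968% of all probes. Without 28-week replicate 7, 9 of the 15 passed, all higher, against 5.57% of all probes. The 4 that passed over all 8 arrays were the cell cycle inhibitor gene Cdkn1a (11.9-fold, adjusted p = 0.00146), the adhesion gene Vcam1 (6.14-fold, adjusted p = 0.0423), the annexin gene Anxa2 (4.1-fold, adjusted p = 0.0426) and Dcdc2a (6.49-fold, adjusted p = 0.0464). The last 3 calls ended without any one of the arrays other than 28-week replicate 7, at adjusted p of up to 0.154.

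Macrophages are known to make HB-EGF and epiregulin. All 15 of their markers had a positive difference (median 2.22), without a call over all 8 arrays. Without 28-week replicate 7, 14 of the 15 passed, all higher, against 5.57% of all probes. Their mean level was 6.18 to 6.62 at 8 weeks and 9.97, 6.48, 9.29 and 9.11 in 28-week replicates 6 to 9. Hbegf was also lowest among the 28-week mice in replicate 7, but its ages overlapped (adjusted p = 0.853). Ereg was not lowest there, but its probe was dim, and the order of the mice cannot be read at such a level. Lyz2, a lysozyme gene, had a log2 difference of 4.54 (adjusted p = 0.0607, and 0.000424 without replicate 7). Fcgr3, an Fc receptor gene, had one of 1.16 (adjusted p = 0.0506, and 0.00134 without replicate 7). Adgre1, which encodes the macrophage antigen F4/80, had one of 1.67 (adjusted p = 0.208, and 0.00174 without replicate 7). The 8 T cell and innate lymphoid markers also all had positive differences (median 0.54), without a call over all 8 arrays, and 4 of the 8 passed without replicate 7, all higher. The smallest p were those of Cd3e (1.09, adjusted p = 0.105, and 0.0131 without replicate 7) and Icos (0.73, adjusted p = 0.2, and 0.0129 without replicate 7). Of 9 endothelial markers 7 had a positive difference (median 0.36), without a call (1 of 9, higher, without replicate 7). The smallest p were those of Cdh5 (0.68, adjusted p = 0.166, and 0.0411 without replicate 7) and Kdr (-0.40, adjusted p = 0.184). Of 6 podocyte markers 5 had a negative difference (median -0.41), without a call, with the smallest p for Podxl (-0.48, adjusted p = 0.308) and Plce1 (-0.48, adjusted p = 0.334). The part of these cells in the members' results was not tested.

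The genes whose profiles over the 8 arrays lay nearest to those of Erbb3, Egf and Egfr were found among 17385 genes. The measure was the root mean square distance between values, each taken minus the gene's own mean, in log2 units. Nearest to Erbb3 were the basement membrane collagen gene Col4a5 (distance 0.141), the transcription factor gene Osr2 (0.149) and the IGF-binding protein gene Igfbp4 (0.173). Nearest to Egf were Il13ra2, the gene of a decoy receptor of interleukin 13 (0.103), Acaa2, a mitochondrial enzyme gene of fatty acid oxidation (0.130), and Tkfc, a kinase gene of sugar metabolism (0.142). Nearest to Egfr were Bbs2, a gene of a ciliary protein complex (0.097), Dlst, a gene of the 2-oxoglutarate dehydrogenase complex (0.114), and Nxf3 (0.129), whose probe was dim at 3.36 to 4.27. Predicted genes and olfactory receptors were not among those searched. The 3 genes nearest to Erbb3 passed the threshold, at adjusted p of 0.0258 to 0.0426, where 0.968% of all probes passed. Those nearest to Egf and Egfr did not. Genes nearest to a member were picked for values like its own, so differences like its own follow from that choice. These calls are therefore not a separate result.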

How the data were processed

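Per the labels' protocols, Trizol was used to extract the kidney RNA of the 8 mice, and biotinylated cRNA was made from it. The deposited log2 values were made by the authors with RMA, per the submitters' processing notes. Which version and settings they used is not given in the sources used here. No source states the base of the logarithm, and base 2 was assumed because RMA uses it and the values run from 2.31 to 19.89. RMA's background step and its summary over probes can shrink the differences of dim genes. The labels do not say whether the mice were littermates.

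The platform annotation gave 1 symbol to 19572 of 22206 probes, several to 0 and none to 2634, and no symbol differed from RefSeq. For genes with several probes the brightest stood for the gene. The 2 ages were compared in all 8 arrays with lmFit and eBayes of limma (version 3.58.1, R version 4.3.3; prior of 4.13 degrees of freedom) without a filter. No batch was given in the labels, so none could be examined. No 2 arrays held identical columns. Replicate numbers are not shared between ages.

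The members and the 16 other gene lists (199 names, 179 of them measured) were chosen with earlier results of these data known. The text names all members, the other EGF family ligands, 7 further genes (Egr1, Errfi1, Adam17, Umod, Slc12a3, Trpm6 and Adgre1) and, per list, up to 4 members past the threshold or otherwise the 2 with the smallest p. It also names the 3 nearest profiles of the 3 members with the smallest p. Genes named beside these were chosen after their values were seen: Socs3, Lrp2 and Eif2s3y, and Havcr1, Myc, Klf6, Krt18 and Atf3 in the closing section. Alternatives were other scalings (array medians, quantiles, 72 ribosomal protein probes), a filter that left out the 1/3 of probes with the lowest mean, eBayes options, array weights, the mean of a gene's probes, a threshold of 0.01 and each array left out.

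On simulated data for the comparison of 28 with 8 weeks over 22206 probes, limma found 3.6% of the probes given a log2 difference of 0.5, 52.8% at a log2 difference of 1 and 94.4% at 2. Python 3.11.15 with pandas 2.3.3 made the tables, and matplotlib 3.10.9 drew the plots.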

Additional observations from a re-analysis of the deposited data

Results flagged for a closer look

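In groups of 4, a value was singled out where its gap to the nearest other value exceeded Dixon's critical share of the group's range, which chance gives in about 1 of 20 groups. This was so in 7 of 100 groups checked. Among the members it was Erbb2 in 28-week replicate 6 (8.97, others 8.73 to 8.77). In 8-week replicate 1 it was Errfi1 (16.22, others 17.02 to 17.16), Umod (18.52, others 18.31 to 18.34), Nras (8.59, others 8.83 to 8.87) and Aqp3 (12.17, others 10.98 to 11.12). In 28-week replicate 7 it was Vcam1 (8.01, others 10.17 to 10.44) and Fcgr3 (9.35, others 10.20 to 10.35).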

How the results depend on the processing

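Of the 9 members, Hbegf, Btc, Egfr, Erbb2 and Erbb4 kept their direction and stayed short of the threshold under every alternative run. Egf kept its direction under all of them and passed with trend and robust options (-0.85), with array weights (-0.93), without 28-week replicate 7 (-1.03) and with 28-week replicate 7 and 8-week replicate 1 both left out (-1.02, an alternative added once the data had been seen). Erbb3 kept its direction too and passed with array medians (-1.01), ribosomal protein centring (-0.97), without the dimmest probes (-0.95), with trend and robust options (-0.95), with array weights (-0.90) and without 28-week replicate 7 (-0.97), but not without both arrays (-0.95, adjusted p = 0.0565). With 1 array left out the log2 difference ranged from -1.03 to -0.71 for Egf, from -1.07 to -0.76 for Erbb3, from -0.072 to 0.072 for Ereg and from -0.068 to 0.085 for Tgfa. The sign of Ereg turned with array medians (-0.059), quantile normalization (-0.003), ribosomal protein centring (-0.022), array weights (-0.045) and without both arrays (-0.087), and that of Tgfa with array medians (-0.034). Ereg and Tgfa are not in the set without the dimmest probes.

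The number of members past the threshold, 0, became 1 with array medians, 1 with ribosomal protein centring, 1 without the dimmest probes, 2 with trend and robust options, 2 with array weights and 1 without both arrays, and ranged from 0 to 2 with 1 array left out. The number of all probes past the threshold, 215, became 399 with trend and robust options, 873 with array weights, 18 at a threshold of 0.01 and 1384 without both arrays, and ranged from 25 to 1237 with 1 array left out. The number of list genes past it, 6, became 33 with array weights, 1 at the threshold of 0.01 and 50 without both arrays, and ranged from 1 to 48 with 1 array left out. The highest counts came without 28-week replicate 7. A fit with an array left out has fewer samples, and why the calls rose without replicate 7 was not tested. Of the 6 called list genes, Cdkn1a passed in all 8 fits with an array left out.

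No paired analysis was possible because the 2 ages share no replicate numbers. No scaling moved the median of all probes by over 0.1. In simulation 52.8% of 2-fold differences were recovered, so differences of about this size can be missed with 4 mice per age. The simulation gave each probe the same SD at both ages. In the data the SD was 0.05 at 8 weeks and 0.46 at 28 weeks for Egf, and 0.10 and 0.40 for Erbb3. The recovered share is therefore not a rate for these genes.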

Other observations

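The 28-week mice did not rank alike in the genes of this family. Egf was lowest in replicates 8 and 9 (14.54 and 14.46) and Nrg1 was highest in them (9.73 and 9.70). The injury marker Havcr1 (16.51 and 17.22) and the transcription factor genes Myc (8.54 and 8.17) and Klf6 (10.73 and 10.69) were also highest in these mice. Other genes of the same lists ranked otherwise: the injury marker Krt18 (7.73) and the ERK response gene Atf3 (6.63) were highest in replicate 6. In replicate 6 Egf was 15.08 and Nrg1 7.46, the lowest Nrg1 value of all mice, while the macrophage marker level was the highest there (9.97) and Egfr the lowest (6.92). Erbb3 was lower than in every 8-week mouse also in replicate 7 (8.38), where the macrophage marker level (6.48) lay within the 8-week range. The tubule injury marker level in replicate 7 (8.88) lay above its 8-week range (8.31 to 8.67). How these levels relate to Erbb3 was not tested.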
